A study of Mus musculus with 9 samples.

Results

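The genes described are those of YAP, TAZ, the TEAD factors they bind and the transcripts most often used to read their activity. The list of 10 genes holds Yap1, Wwtr1 (which encodes TAZ), Tead1, Tead4, Ccn1, Ccn2, Ankrd1, Amotl2, Lats2 and Ajuba, and was matched by gene name to the table of RNA-Seq counts. All 10 were found among its 15384 genes. They were measured in MyC-CaP, a mouse prostate cancer cell line that overexpresses the oncogene MYC. The cells were starved in medium without serum and calcium and then given 100 ng/mL recombinant mouse ASPN (asporin), a small leucine-rich proteoglycan that stromal fibroblasts secrete. They were collected at time 0, at 12 hours and at 24 hours, with 3 libraries labeled as biological replicates at each time. Each of the 9 libraries carries the label ASPN-treated, also at 0 hours, and the 0-hour libraries served here as time 0. All groups come from 1 cell line, all were starved first, and no library kept with buffer for 12 or 24 hours is among the 9, so exposure to ASPN and hours in culture cannot be told apart in any comparison. That the wells of a triplicate were separate cultures is given by the labels only, and p-values measure the spread between these libraries.

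YAP and TAZ are transcriptional coactivators at the end of the Hippo pathway. The kinases MST1 and MST2 activate LATS1 and LATS2, which phosphorylate YAP and TAZ and hold them in the cytoplasm, and unphosphorylated YAP and TAZ enter the nucleus and bind the TEAD factors on DNA. Matricellular proteins encoded by Ccn1 and Ccn2 and the cofactor gene Ankrd1 are among their best known targets, and Amotl2 and Lats2 are targets whose products restrain YAP and TAZ. Counts of mRNA do not measure phosphorylation or location of these proteins.

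Depth did not limit the detection of any of the 10 genes. The 9 libraries held 41881191 to 52993821 counts, and the lowest count of a gene on the list was 153 (Ankrd1 at time 0). Values below are CPM, each count taken relative to the total of its library after TMM scaling, with factors between 1.04 and 1.07 at both earlier times and between 0.898 and 0.911 at 24 hours. Of the luminal prostate markers, Hoxb13 and Krt8 were present at 71.8 and 25.4 CPM at time 0, at 69.5 and 26.3 CPM at 12 hours and at 96.6 and 38.1 CPM at 24 hours, whereas Epcam and Cdh1 had 0 to 10 counts and Krt18 2 to 22 in every library. Markers of other cells were low. The 4 fibroblast markers in the table summed to 12.9 to 14.1, 12.2 to 12.5 and 9.12 to 10.3 CPM, almost all of it Pdgfra, while Col1a1 had 0 to 8 counts and Pdgfrb 0 to 3. Basal, endothelial and leukocyte markers each summed to less than 1 CPM in every library, with Krt5, Cdh5 and Cd3e at 0 or 1 count. The part of the marker levels at 24 hours in the results below was not tested. In RNA from whole cultures, fewer cells that express a gene and less RNA of it per cell cannot be told apart.

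The start regions of the genes on the list carry the short sequence that TEAD factors are known to bind. RefSeq promoter windows of the GRCm38.p6 assembly, 250 bases before to 50 bases after a transcript start, were given for 7 of the 10 genes (9 windows). Tead1, Tead4 and Ccn2 had none. The letters GGAATG, searched on both strands (CATTCC on the other), were found in a window of all 7 genes, in 8 of 9 windows, against 14.7% of all 32851 windows and 16.6% of the 27025 genes. Target genes of TEAD factors are often known as such through sites of this kind, so the share is a description. The AP-1 site TGANTCA was in 0 of the 9 windows (7.81% of all windows) and the CArG box of serum response factor in 0 (1.63%). None of the 3 motifs contains another, and no match says only that these letters are not in this window.

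The 250 bases before the start are shown for Ccn1 and Ankrd1, which were higher at both later times, and for Amotl2, which was lower at 24 hours. They are written 5′ to 3′ along the strand of the gene, with the motif in capitals on whichever strand it lies. Ccn1 is at chr3:145649986-145650235 (minus strand), Ankrd1 at chr19:36119845-36120094 (minus strand) and Amotl2 at chr9:102717554-102717803 (plus strand).
Ccn1: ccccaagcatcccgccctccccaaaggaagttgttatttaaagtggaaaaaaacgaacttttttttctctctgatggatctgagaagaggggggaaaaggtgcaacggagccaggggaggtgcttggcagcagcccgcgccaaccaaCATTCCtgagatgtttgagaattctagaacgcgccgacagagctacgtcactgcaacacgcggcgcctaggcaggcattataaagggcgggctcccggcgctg
Ankrd1: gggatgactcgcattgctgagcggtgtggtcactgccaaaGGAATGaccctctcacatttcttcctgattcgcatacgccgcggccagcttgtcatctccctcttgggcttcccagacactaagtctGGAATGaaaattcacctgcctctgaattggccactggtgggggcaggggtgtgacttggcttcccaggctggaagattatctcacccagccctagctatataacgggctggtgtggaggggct
Amotl2: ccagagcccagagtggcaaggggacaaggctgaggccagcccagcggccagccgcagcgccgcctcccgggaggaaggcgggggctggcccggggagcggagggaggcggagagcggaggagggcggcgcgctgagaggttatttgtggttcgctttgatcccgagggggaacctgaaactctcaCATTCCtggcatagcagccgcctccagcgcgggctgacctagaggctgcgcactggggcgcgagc
Ccn1 has 1 match, with its first base 103 bases before the start, and Amotl2 has 1, at 65 bases. Ankrd1 has 2, at 210 and 123 bases. Ajuba has 2 as well, at 186 and 164 bases before its start, and Yap1 has 1, at 141 bases. The Wwtr1 match lies at 170 or 136 bases, depending on which of its annotated starts is used, and the Lats2 match at base 5 after the start in 1 of its windows. Genes that were higher and genes that were lower at 24 hours both hold the letters.

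Ccn1 had the largest change from time 0 of the 10 genes at 12 and at 24 hours. Ccn1 (also CYR61, on chromosome 3, 145646976 to 145649981, minus strand, in GRCm38) encodes a secreted matricellular protein that binds integrins. It stood at 81.0, 86.2 and 81.3 CPM in the libraries of time 0, at 309, 379 and 307 CPM at 12 hours and at 516, 600 and 532 CPM at 24 hours. The lowest library of each later time lay above the highest of the time before. By the quasi-likelihood test of edgeR, with p-values adjusted by Benjamini-Hochberg over all tested genes, Ccn1 rose 4.02-fold at 12 hours (log2 fold change 2.01 ± 0.06, SE, adjusted p = 6.15e-13) and 6.64-fold at 24 hours (2.73 ± 0.06, adjusted p = 1.19e-12). From 12 to 24 hours it rose a further 1.68-fold (0.75 ± 0.07, edgeR adjusted p = 9.35e-07). Where counts were scaled by library totals alone, that last change was 0.52 and fell short of the 1.5-fold threshold, in a fit where the median of all genes was -0.22.

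Ccn2 had the highest level per kilobase of exon at time 0, and its differences were smaller. Ccn2 (CTGF, chromosome 10, 24595442 to 24598683, plus strand), a second matricellular protein of the same family, was at 432, 472 and 481 CPM at time 0, at 609, 618 and 614 CPM at 12 hours and at 631, 759 and 666 CPM at 24 hours. Each later group lay above the one before, but the 24-hour libraries were spread over a wider range than those of 12 hours. The log2 fold change was 0.41 ± 0.04 at 12 hours (1.33-fold, edgeR adjusted p = 6.69e-07) and 0.57 ± 0.06 at 24 hours (1.48-fold, edgeR adjusted p = 3.03e-06), so that at 24 hours Ccn2 passed the p threshold and lay just under the fold threshold of 1.5. It passed both with upper-quartile scaling (0.60) and when time 0 replicate 2 (0.59), time 0 replicate 3 (0.61), 24-hour replicate 1 (0.63) or 24-hour replicate 3 (0.59) was left out. With total counts the value was 0.35, and with the length and GC correction 0.52. From 12 to 24 hours the change was 0.18 ± 0.05 (edgeR adjusted p = 0.00937), and -0.05 with total counts. An antisense transcript, Gm15270, overlaps 665 bases of the Ccn2 exons, and because the strand setting of the counting is not given, its reads and those of Ccn2 cannot be told apart.

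Ankrd1, the lowest of the 10 per kilobase of exon at time 0, was called higher at both later times and not between them. The gene (chromosome 19, 36111961 to 36120099, minus strand) encodes an ankyrin repeat protein of nucleus and sarcomere, and its transcript is a sensitive reporter of YAP and TEAD. It was at 3.90, 3.28 and 3.22 CPM at time 0 (153 to 188 counts), at 10.4, 10.2 and 10.2 CPM at 12 hours and at 9.83, 9.81 and 8.90 CPM at 24 hours. All libraries of 12 and 24 hours lay above those of time 0. Ankrd1 rose 2.96-fold at 12 hours (log2 1.57 ± 0.10, edgeR adjusted p = 1.07e-08) and 2.74-fold at 24 hours (1.46 ± 0.11, edgeR adjusted p = 8.09e-08). Although the 24-hour libraries all lay below those of 12 hours, the difference between them, -0.09 ± 0.08, missed the threshold (edgeR adjusted p = 0.325).

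**Figure D1:**
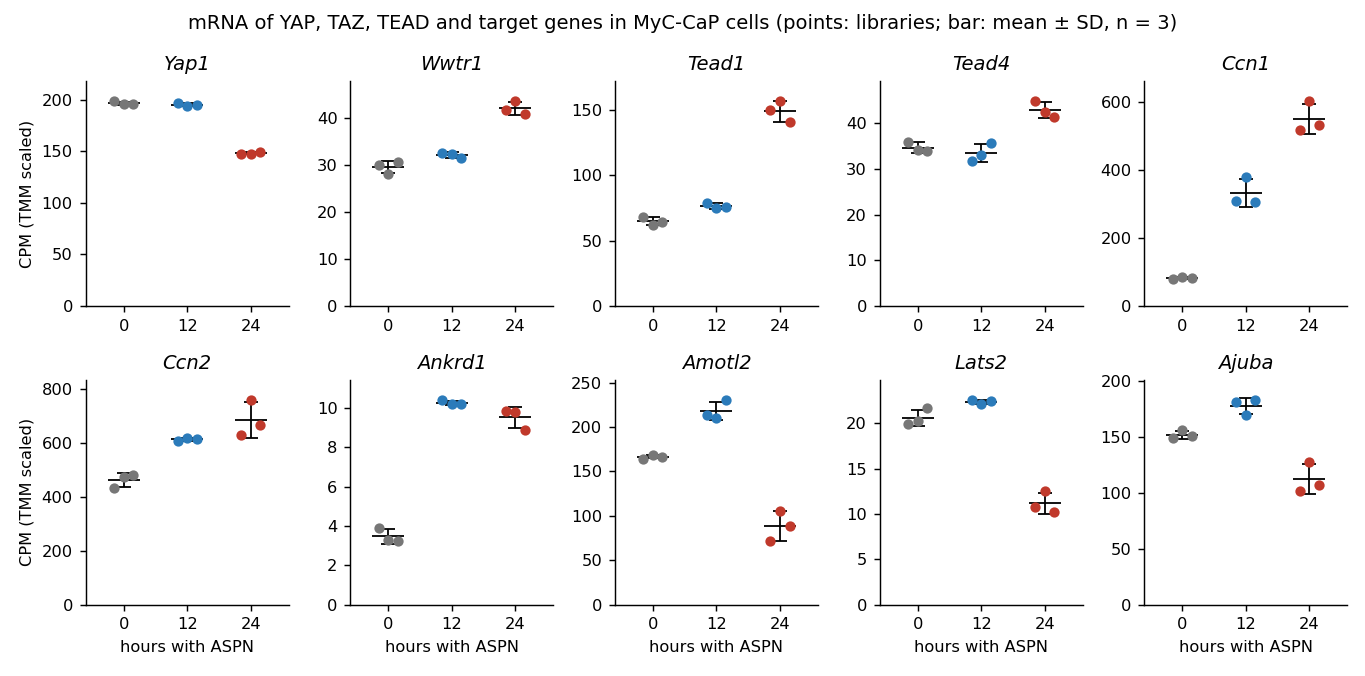
Each panel plots 1 gene, with hours with ASPN on the horizontal axis and CPM scaled by TMM, starting at 0, on the vertical axis. Points are the 3 libraries of a time and bars the mean ± SD, and Ccn1 climbs at both steps, Ankrd1 at the first only, and Amotl2, Lats2 and Ajuba are above time 0 at 12 hours and below it at 24 hours.

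Among the genes whose products act back on the pathway, Amotl2 and Lats2 fell at 24 hours and Ajuba fell between 12 and 24 hours. Amotl2 (chromosome 9, 102716672 to 102733418, plus strand) encodes an angiomotin-like junction protein that binds YAP. It was at 165, 168 and 167 CPM at time 0, at 214, 211 and 230 CPM at 12 hours and at 71.5, 106 and 88.1 CPM at 24 hours. The 12-hour libraries were the highest and the 24-hour libraries the lowest and the most scattered, with no overlap between any of the 3 times. At 12 hours Amotl2 differed from time 0 by 0.39 ± 0.04 (1.31-fold, edgeR adjusted p = 7.73e-07), under the fold threshold. At 24 hours it fell by 0.91 on the log2 scale (SE 0.10, 1.88-fold lower, edgeR adjusted p = 1.95e-06) from time 0 and by 1.28 (SE 0.10, 2.43-fold lower, edgeR adjusted p = 7.54e-08) from 12 hours.

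Lats2 encodes the kinase that phosphorylates YAP and TAZ (chromosome 14, 57689662 to 57758388, minus strand). It stood at 19.9, 20.3 and 21.6 CPM at time 0, at 22.6, 22.1 and 22.4 CPM at 12 hours and at 10.7, 12.5 and 10.2 CPM at 24 hours. The 24-hour libraries were well below the rest, and those of 12 hours lay narrowly above time 0. At 12 hours the difference of 0.12 ± 0.06 missed the threshold (edgeR adjusted p = 0.221). At 24 hours Lats2 fell 1.84-fold from time 0 (log2 -0.88 ± 0.09, edgeR adjusted p = 7.21e-07) and 1.98-fold from 12 hours (-0.98 ± 0.08, edgeR adjusted p = 9.15e-08). Of the 6971 bases of Lats2 exons, 2955 are shared on the same strand with Gm49361, a gene model absent from the count table, so the Lats2 counts may not cover the whole transcript and are uncertain.

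Ajuba (chromosome 14, 54567472 to 54577558, minus strand) encodes a LIM-domain scaffold that binds LATS kinases and holds them from acting on YAP. It was at 150, 156 and 151 CPM at time 0, at 181, 170 and 183 CPM at 12 hours and at 102, 128 and 107 CPM at 24 hours. As for Amotl2, the 12-hour libraries were the highest and the 24-hour libraries the lowest, without overlap. The change was 0.23 ± 0.04 at 12 hours (1.17-fold, edgeR adjusted p = 0.000252) and -0.43 ± 0.07 at 24 hours (1.35-fold lower, edgeR adjusted p = 6.02e-05), neither past the fold threshold. From 12 to 24 hours Ajuba fell 1.56-fold (-0.64 ± 0.07, edgeR adjusted p = 1.31e-06). This last call did not hold without 24-hour replicate 1 (-0.58) or when the counts were corrected for length and GC content (-0.51), both under the fold threshold. The 24-hour replicate 2 was the highest of its group for Amotl2, Lats2 and Ajuba, and also for Ccn1, Ccn2, Tead1 and Wwtr1.

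The coactivators themselves differed from time 0 in opposite directions at 24 hours, both by less than 1.5-fold. Yap1 (chromosome 9, 7931999 to 8004596, minus strand) was at 198, 196 and 195 CPM at time 0, at 196, 194 and 194 CPM at 12 hours and at 148, 147 and 149 CPM at 24 hours. Wwtr1, the gene of TAZ (chromosome 3, 57455649 to 57575910, minus strand), was at 30.2, 28.2 and 30.7 CPM at time 0, at 32.7, 32.5 and 31.5 CPM at 12 hours and at 41.7, 43.6 and 41.0 CPM at 24 hours. The first 2 times overlapped for Yap1 and lay close together for Wwtr1, and the 24-hour libraries stood apart from both for each gene. At 12 hours Yap1 differed by -0.01 ± 0.03 (edgeR adjusted p = 0.921) and Wwtr1 by 0.12 ± 0.05 (edgeR adjusted p = 0.140). At 24 hours Yap1 was 1.33-fold lower than at time 0 (log2 -0.41 ± 0.04, edgeR adjusted p = 4.06e-07) and Wwtr1 1.42-fold higher (0.50 ± 0.05, edgeR adjusted p = 2.15e-06), which passed the p threshold and not the fold threshold. The Yap1 value depended on the scaling, with -0.63 and a call by total counts, where the median of all genes was -0.24, and -0.16 after the correction for length and GC content. An antisense transcript, Gm20416, overlaps 116 bases of the Yap1 exons.

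The ratio of the 2 coactivators was also compared. Per kilobase of exon, Yap1 was 3.42 ± 0.16 (SD, n = 3) times as abundant as Wwtr1 at time 0, 3.12 ± 0.05 times at 12 hours and 1.82 ± 0.07 times at 24 hours. The ratios of the 24-hour libraries, 1.74 to 1.88, lay below all others. The exact two-sided permutation p was 0.10 for each pair of times, the smallest that 3 libraries against 3 can give. This ratio is taken within a library, so a factor per library cancels in it, but the length and GC correction differs between genes and does not cancel, with Yap1 at -0.16 and Wwtr1 at 0.47 at 24 hours. Its size also depends on the gene length used, since Yap1 has 9257 bases of merged exons against 4171 in its longest transcript.

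Of the TEAD genes, Tead1 was called higher at 24 hours. Tead1 (chromosome 7, 112679318 to 112906807, plus strand) was at 68.0, 62.0 and 64.3 CPM at time 0, at 79.1, 74.8 and 75.5 CPM at 12 hours and at 150, 156 and 141 CPM at 24 hours. The groups did not overlap at any step. Its log2 fold change was 0.24 ± 0.04 at 12 hours (1.18-fold, edgeR adjusted p = 0.000571), under the fold threshold, and it rose 2.30-fold at 24 hours (1.20 ± 0.05, edgeR adjusted p = 4.35e-10) and 1.97-fold from 12 to 24 hours (0.98 ± 0.05, edgeR adjusted p = 6.51e-10). Tead4 (chromosome 6, 128224288 to 128300823, minus strand) was at 36.0, 34.2 and 33.9 CPM at time 0, at 31.8, 33.1 and 35.8 CPM at 12 hours and at 44.8, 42.6 and 41.5 CPM at 24 hours. The libraries of time 0 and 12 hours overlapped and those of 24 hours were higher. Tead4 differed by -0.05 ± 0.05 at 12 hours (edgeR adjusted p = 0.675) and by 0.31 ± 0.05 at 24 hours (1.24-fold, edgeR adjusted p = 0.000150), under the fold threshold.

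The other TEAD genes, Tead2 and Tead3, are not on the list and are given for comparison. Tead2 was at 56.3 ± 1.46, 54.2 ± 2.10 and 73.6 ± 1.52 CPM (SD, n = 3) at the 3 times and Tead3 at 37.5 ± 1.12, 39.6 ± 1.57 and 41.2 ± 2.21 CPM. At 24 hours Tead2 differed from time 0 by 0.39 ± 0.04 (edgeR adjusted p = 3.34e-06) and Tead3 by 0.14 ± 0.05 (edgeR adjusted p = 0.0410). Tead3 was at -0.09 with total counts and 0.49 after the length and GC correction, and Tead2 passed both thresholds after that correction (0.61). Per kilobase, Tead1 made up 15.0% ± 0.45 of the summed level of the 4 TEAD genes at time 0, 17.5% ± 1.00 at 12 hours and 24.7% ± 0.83 at 24 hours. Over the same times Tead2 went from 37.0% to 34.6%, Tead3 from 17.6% to 13.8% and Tead4 from 30.4% to 26.9%. The Tead1 shares of the 24-hour libraries, 23.8% to 25.4%, lay above all others, with an exact two-sided permutation p of 0.10, again the smallest possible. The summed TEAD level was 31.8 ± 0.60 CPM per kilobase at time 0, 32.2 ± 1.07 at 12 hours and 44.4 ± 0.87 at 24 hours.

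**Figure D2:**
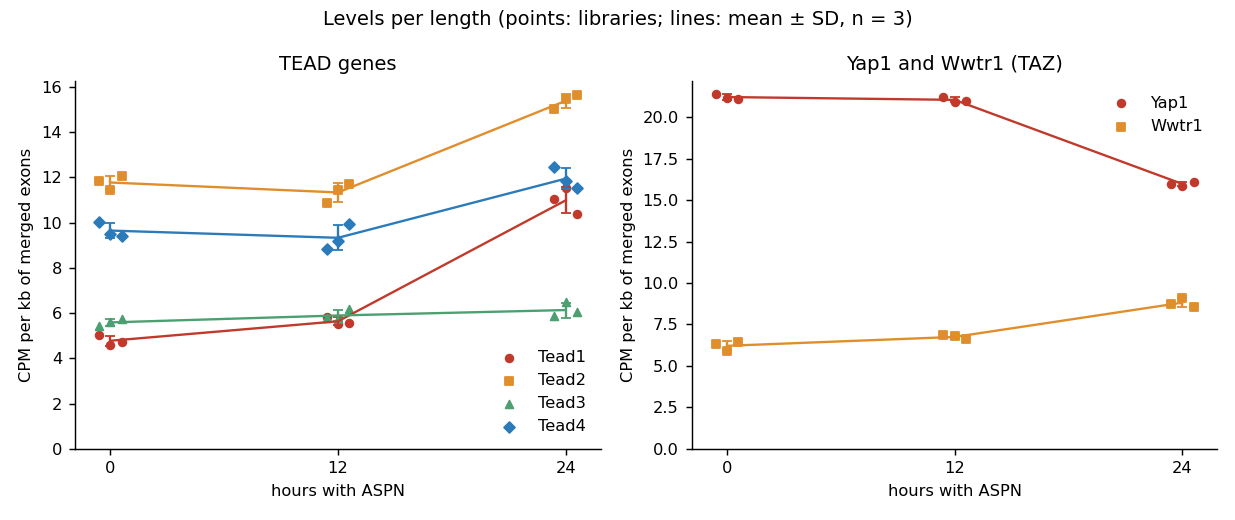
The left panel plots the 4 TEAD genes and the right panel Yap1 and Wwtr1, as CPM per kilobase of merged exons (vertical axis, from 0) against hours with ASPN, with points for libraries and lines through the mean ± SD (n = 3). Tead1 starts as the lowest TEAD gene at 4.78 and reaches 10.98 at 24 hours, beside Tead4 at 11.9, while Yap1 goes down from 21.2 to 16.0 and Wwtr1 up from 6.21 to 8.81.

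Over the 10 genes, 2 were called at 12 hours, both higher, and 5 at 24 hours, in both directions. All 10 passed the filter on low counts in each fit, as genes with 153 counts or more would. At 12 hours 2 of 10 were called higher (adjusted p of 0.05 or less and at least 1.5-fold), against 1.5% of the 11410 genes tested, and 0 were called lower, against 0.0964%. By adjusted p alone 6 of 10 were higher (6.85% of all genes), and for 8 of 10 the 3 libraries of 12 hours did not overlap those of time 0 (27.1% of all genes). The median log2 fold change was 0.24 for the list and -0.00 for all tested genes. At 24 hours 3 of 10 were called higher, against 12.0% of the 11444 genes tested, and 2 were called lower, against 16.8%. By total counts these numbers were 3 higher and 4 lower, with Yap1 and Ajuba added (698 and 3008 of all 11444 genes), and the median of all genes moved to -0.24.

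At 24 hours all 10 genes passed the adjusted p alone and all 10 had groups that did not overlap, but so did 70.9% and 74.0% of all genes, and little can be read from either count. The median was 0.41 for the list and -0.02 for all genes. Between 12 and 24 hours 2 genes were called higher (10.4% of the 11394 genes tested) and 3 lower (15.3%). Total counts gave 1 higher and 4 lower (484 and 2830 of all 11394 genes), and the length and GC correction 2 and 2 (1331 and 1342 of all 11369 genes). By adjusted p alone 9 of 10 differed (71.3% of all genes), all 10 had groups that did not overlap (73.8%), and the median was 0.04 against 0.00. The comparisons with time 0 share its libraries, so the values at 12 and 24 hours are not independent of each other.

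**Figure D3:**
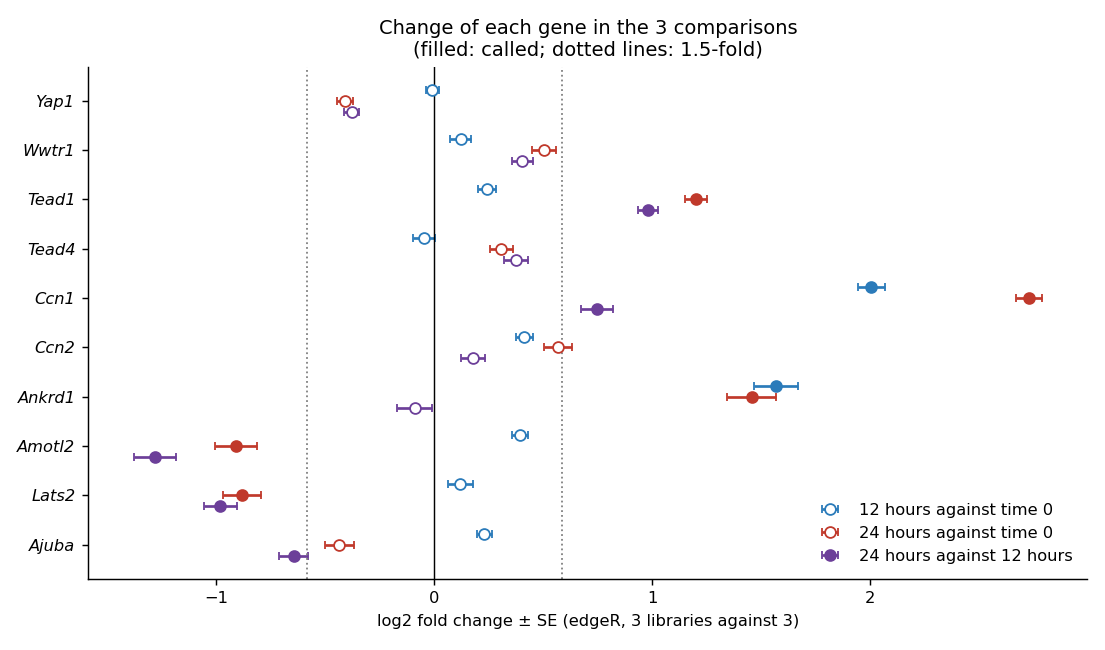
Each row is a gene and the horizontal axis gives its log2 fold change ± SE by edgeR for 3 libraries against 3, colored by comparison, with filled points for called changes and dotted lines at 1.5-fold. Ccn1 and Ankrd1 lie far to the right against time 0, at 2.73 and 1.46 at 24 hours, Tead1 joins them at 24 hours (1.20), and Amotl2 and Lats2 lie to the left at 24 hours (-0.91 and -0.88).

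Levels between genes were compared per kilobase of exon. At time 0 Ccn2 led at 161 CPM per kilobase, followed by Ajuba (41.7) and Ccn1 (41.0), whose libraries overlapped, and then by Amotl2 (26.5), Yap1 (21.2), Tead4 (9.64), Wwtr1 (6.21), Tead1 (4.78), Lats2 (2.96) and Ankrd1 (1.20), none of which overlapped its neighbor. At 12 hours Ccn1 (164) had passed Ajuba (48.9) and Ankrd1 (3.55) had passed Lats2 (3.21), with no neighbors overlapping. At 24 hours Ccn1 (272) and Ccn2 (240) overlapped at the top, Ajuba followed at 30.9, and the neighbors Yap1 (16.0), Amotl2 (14.1), Tead4 (11.9) and Tead1 (10.98) overlapped in turn. Wwtr1 (8.81), Ankrd1 (3.30) and Lats2 (1.60) closed the order. These orders hold for merged exons. With the longest transcript as the length, Yap1 stood at 47.1 at time 0, above Ajuba (44.8) and Ccn1 (41.0), and at 24 hours at 35.5, overlapping Ajuba (33.1). Tead1 (6.50) then stood above Wwtr1 (6.32) at time 0, with overlap, and at 12 hours Ajuba (52.45) and Amotl2 (50.4) overlapped. At 24 hours Ccn2 (275) stood above Ccn1 (272) and Tead1 (15.0) above Tead4 (14.0), each with overlap. Amotl2 (20.4) overlapped neither neighbor at 24 hours.

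The rest of the pathway was read from 6 short lists, with the 10 genes left out. At 12 hours 0 of the 56 genes tested were called by edgeR (182 of all 11410 genes), and 0 by DESeq2 (177 of all 11410 genes). With so few calls among all genes, little can be read from 0 calls in lists of this size. Of the 56 genes, 25 had an unadjusted p under 0.05 in edgeR's test, as did 2437 of all 11410 genes. By adjusted p alone 18 were higher (6.85% of all genes) and 2 lower (396 of all 11410 genes). At 24 hours 23 of 56 were called, 11 higher (12.0% of all genes) and 12 lower (16.8% of all genes). After the correction for length and GC content the numbers were 14 higher and 5 lower (1528 and 1531 of all 11417 genes), and with total counts 8 and 18 (698 and 3008 of all 11444 genes), so that the numbers of the lists and of all genes shifted with the scaling. Between 12 and 24 hours 8 of 55 were called higher (10.4% of all genes) and 12 lower (15.3%), with 11 and 6 after the correction (1331 and 1342 of all 11369 genes) and 6 and 18 with total counts (484 and 2830 of all 11394 genes).

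Of the kinases that act above YAP, Stk3 rose and Taok2 fell at 24 hours. Of the 10 kinase core genes tested (MST, LATS, TAO and MAP4K kinases with their partners), 1 was called higher and 1 lower at 24 hours, against 12.0% and 16.8% of all genes, with a list median of -0.16. With total counts 0 were called higher and 4 lower (698 and 3008 of all 11444 genes), and the list median was -0.38. Stk3, the gene of MST2, rose from 39.9 ± 1.78 to 64.3 ± 1.60 CPM (log2 0.69, edgeR adjusted p = 3.96e-08), but was at 0.47 and not called with total counts. Taok2, which encodes a kinase that activates MST, fell from 78.6 ± 1.76 to 31.8 ± 2.93 CPM (log2 -1.31, edgeR adjusted p = 8.90e-10), with -0.83 after the length and GC correction.

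Of the membrane and junction proteins that regulate the pathway, 7 were called lower at 24 hours, among them Amotl1 and Wwc1. Of 16 tested of 18 listed, 7 were called lower, against 16.8% of all genes, and 0 higher, against 12.0%, and the list median was -0.19. Amotl1, a second angiomotin-like protein, fell from 456 ± 21.1 to 184 ± 5.11 CPM (log2 -1.31, edgeR adjusted p = 8.04e-11), and Wwc1, the gene of KIBRA, fell from 398 ± 4.37 to 176 ± 14.0 CPM (-1.18, edgeR adjusted p = 6.30e-10). Fat1, Wwc2, Nf2 and Limd1, named after their values were seen, were also called lower, at -0.75 to -0.66. After the length and GC correction 2 of the 16 were called lower, Amotl1 (-1.0) and Wwc1 (-0.95), against 1531 of all 11417 genes, so the count no longer stood above that of all genes, and the median was -0.03. Limd1 encodes a relative of Ajuba that also binds LATS kinases, so the lowered genes of this list include products known to act on either side.

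Other genes known as YAP and TAZ targets went both ways. Of 15 tested of 17 listed, 4 were called higher and 4 lower at 24 hours, against 12.0% and 16.8% of all genes, and the median was -0.27. Gadd45a, a growth arrest and DNA damage gene, rose 2.83-fold, from 6.48 to 18.4 CPM (SE 0.11 on the log2 scale, edgeR adjusted p = 3.27e-08), and F3, the gene of tissue factor, from 105 ± 4.07 to 191 ± 29.1 CPM (0.86 ± 0.08, edgeR adjusted p = 6.26e-07). Axl (0.83) and Ptpn14 (0.67) were the other 2 called higher and were named after their values were seen. Fjx1 had the lowest log2 fold change, -2.81 ± 0.64 (edgeR adjusted p = 0.00149), but rests on few reads, with 32, 20 and 51 counts at time 0 and 0, 2 and 11 counts at 24 hours, and moved to -4.77 without 24-hour replicate 3. Foxf2, a forkhead factor, fell from 40.6 ± 2.13 to 22.1 ± 0.69 CPM (-0.88 ± 0.06, edgeR adjusted p = 1.97e-08). Arhgef17 (-0.78) and Dock5 (-0.59), also named after their values were seen, were the other 2 called lower. Dock5 lay at the fold threshold and missed it with DESeq2 (-0.58), RLE factors (-0.58), upper-quartile factors (-0.56), the length and GC correction (-0.37), and without time 0 replicate 1 (-0.53) or 24-hour replicate 3 (-0.57). Arhgef17 missed it after the correction (-0.26) and Ptpn14 with total counts (0.45). After the length and GC correction 5 were called higher and 2 lower (1528 and 1531 of all 11417 genes), and with total counts 3 and 7 (698 and 3008 of all 11444 genes).

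Targets of serum response factor (SRF) and its MRTF coactivators were taken as a neighboring program, since it is known to share cytoskeletal targets with YAP. Of 11 tested of 13 listed, 6 were called higher and 0 lower at 24 hours, against 12.0% and 16.8% of all genes, with a median of 0.89. At 12 hours 0 were called (182 of all 11410 genes). By adjusted p alone 8 were higher (6.85% of all genes), and the median was 0.25. Actg1, which encodes a cytoplasmic actin, rose from 1383 ± 71.7 to 4194 ± 314 CPM (log2 1.60 ± 0.06, edgeR adjusted p = 1.36e-10), although reads of near-identical actin copies could be split in its count. Zyx, the gene of the focal adhesion protein zyxin, rose from 71.6 ± 0.80 to 182 ± 15.3 CPM (1.35 ± 0.06, edgeR adjusted p = 3.39e-10). The other 4, named after their values were seen, were Cnn2 (1.11), Tpm1 (1.09), Cnn1 (1.03) and Fhl2 (0.89). Cnn1 had 8 counts in its lowest library and was not called with total counts (0.81) or without time 0 replicate 2 (0.79), time 0 replicate 3 (1.02) or 24-hour replicate 3 (0.91). Tested and not called, also named after their values were seen, were Flna (0.56), Vcl (0.36), Srf itself (0.22), Actb (0.13) and Tagln (-0.46, on 9 to 26 counts). With total counts 5 of the list were called higher and 0 lower (698 and 3008 of all 11444 genes). After the length and GC correction 7 were called higher and 0 lower (1528 and 1531 of all 11417 genes). The smooth muscle actin gene Acta2 had 0 to 3 counts and was not tested. Of the VGLL cofactors only Vgll4 passed the filter, at -0.11 (edgeR adjusted p = 0.168) at 24 hours, and of the other CCN genes only Ccn5, at -0.14 (edgeR adjusted p = 0.743) with 14 to 25 counts.

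**Figure D4:**
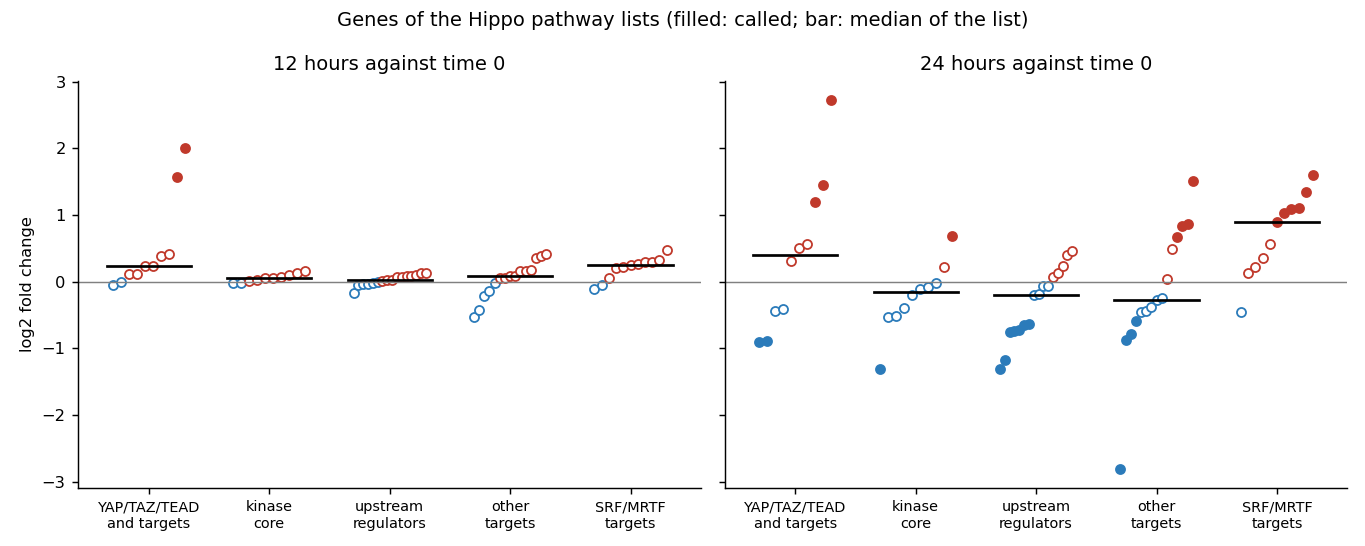
Each point is a gene, the vertical axis is its log2 fold change against time 0 at 12 hours (left) and 24 hours (right), the columns are the list of 10 genes and 4 pathway lists, filled points are called and bars are list medians. At 12 hours the called points are Ccn1 (2.01) and Ankrd1 (1.57), and at 24 hours the medians run from -0.27 for the other targets to 0.89 for the SRF and MRTF targets.

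The changes called against time 0 among the 10 genes kept their direction and their call in each alternative run, which were DESeq2, other scalings, other filters, 1 fit of all 9 libraries, a block, the length and GC correction and each library left out. Over the alternatives other than leaving out a library, Ccn1 ran from 2.51 to 2.76 at 24 hours, Ankrd1 from 1.24 to 1.49, Tead1 from 0.98 to 1.33, Amotl2 from -1.13 to -0.61 and Lats2 from -1.10 to -0.61. The correction for length and GC content moved Amotl2 and Lats2 by more than any library left out, to just past the fold threshold.

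**Figure D5:**
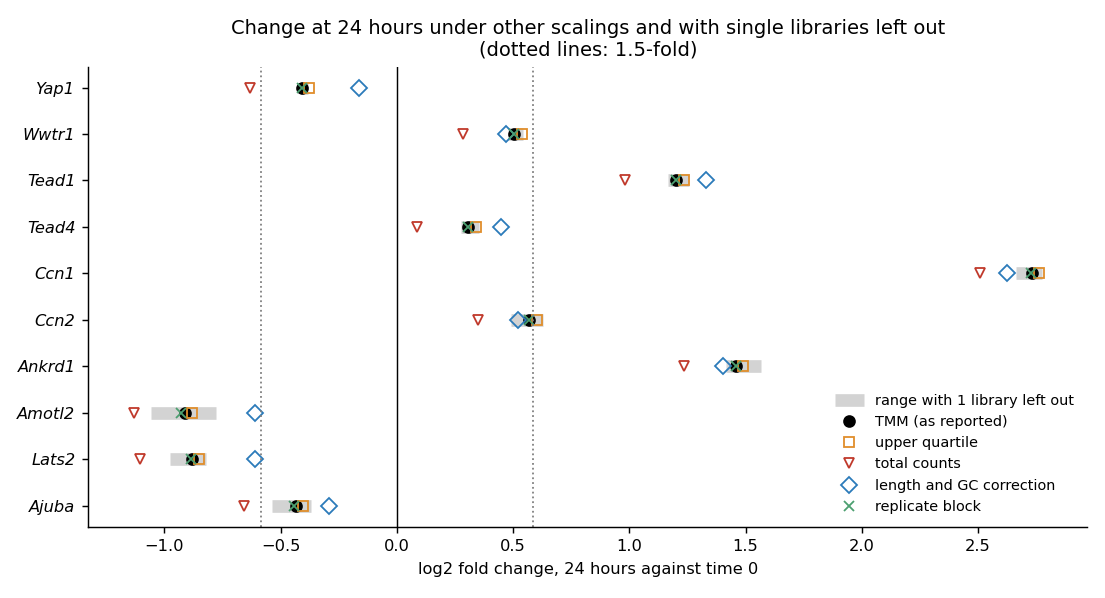
Each row is a gene and the horizontal axis is its log2 fold change at 24 hours against time 0, with a black point for the value reported, open symbols for other scalings and corrections, a gray bar for the range with 1 library left out, and dotted lines at 1.5-fold. Total counts shift every gene to the left, and the length and GC correction brings Yap1 (-0.16), Amotl2 (-0.61) and Lats2 (-0.61) closer to 0.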

How the data were processed

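RNA-Seq gene counts of 9 MyC-CaP libraries were used, 3 each at time 0, 12 and 24 hours. The authors trimmed reads with cutadapt, aligned them with STAR to GRCm38.p6 under GENCODE annotation and ran featureCounts. The deposited table gives the resulting raw counts of 15384 protein-coding genes. The strand setting is not given in the sources used here. Positions, exon lengths and GC content came from GENCODE M21 on the same assembly, which held 99.9% of the gene identifiers.

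Each comparison was fitted on its 6 libraries with filterByExpr, TMM factors and edgeR's quasi-likelihood test (edgeR 4.0.16, limma 3.58.1, R 4.3.3). A gene was called when its p, adjusted by Benjamini-Hochberg, was at most 0.05 and its fold change 1.5 or more, the thresholds of the study. Errors of levels are SD (n = 3) and those of log2 fold changes are SE. Ratios within a library were compared with exact permutation tests. Alternatives were DESeq2 1.42.0, RLE and upper-quartile factors, total counts, other filters on low counts, 1 fit of all libraries, a replicate block, loess offsets per library for transcript length and GC content, the adjusted p alone, and each library left out. Scripts were tested on simulated data. All pairs of libraries within a time differed beyond sampling noise (chi-square per degree of freedom between 3.41 and 17.5).

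The genes and lists were chosen with earlier results of these data known. Named genes are the 10 of the list, Tead2 and Tead3, and from each other list up to 2 highest and 2 lowest called genes against time 0. The genes most like Ccn1, Ccn2 and Ankrd1 over the libraries are the 3 with the highest Pearson correlation. Libraries of LNCaP cells and of NRG1β treatment were not analysed here, and a few genes of the lists are not reported by name.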

Additional observations from a re-analysis of the deposited data

Results flagged for a closer look

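Several genes differed between 12 and 24 hours with ASPN by the test of that difference itself (edgeR's quasi-likelihood test, adjusted p of 0.05 or less and at least 1.5-fold), which means that their changes from time 0 were unequal at the 2 times. Of the 10 genes, these were Ccn1 with a log2 difference of 0.75 (24 hours minus 12 hours), Tead1 with 0.98, Ajuba with -0.64, Lats2 with -0.98 and Amotl2 with -1.28. Among named genes of the pathway lists, higher values at 24 than at 12 hours were found for Gadd45a (1.44), Actg1 (1.40), Zyx (0.89) and Stk3 (0.62), of which Stk3 was under the fold threshold with the length and GC correction (0.57) and with total counts (0.39). Lower values at 24 hours were found for Fjx1 (-2.26, on 0 to 24 counts, and -4.22 without 24-hour replicate 3), Taok2 (-1.26, and -0.82 with the length and GC correction), Wwc1 (-1.17), Amotl1 (-1.13) and Foxf2 (-0.65). For comparison, 10.4% of all tested genes were called higher and 15.3% lower between the same times. The part of hours in culture in these differences was not tested.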

How the results depend on the processing

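Removing the fold threshold moved the counts most, to 6, 10 and 9 of the 10 genes for 12 hours against time 0, 24 hours against time 0 and 24 against 12 hours. For the other lists the counts became 20 of 56, 42 of 56 and 44 of 55 genes. Over all tested genes they became 1178 of 11410, 8119 of 11444 (70.9%) and 8124 of 11394 (71.3%). Little can therefore be read from the counts in both comparisons with 24 hours. With the longest transcript in place of merged exons, the Tead1 share was 13.6%, 15.7% and 22.9% at the 3 times, and the ratio of Yap1 to Wwtr1 was 7.46, 6.81 and 3.96. Of the log2 fold changes of the 10 genes, 292 of those under other settings kept their direction and call, 4 gained the call, 3 lost it and 1 reversed, which was Ccn2 from 12 to 24 hours with total counts (-0.045, edgeR adjusted p = 0.471). With 1 library left out, 175 kept it, 4 gained it (Ccn2 at 24 hours) and 1 lost it (Ajuba from 12 to 24 hours). Among the named genes of the other lists, Tead3, which was not called, changed sign in the 24-hour comparisons with total counts (-0.09 against time 0 and -0.15 against 12 hours). Leaving out libraries gave 2 called genes at 12 hours, 5 to 6 at 24 hours and 4 to 5 between them. Libraries with the same replicate number did not deviate together (mean correlations -0.01, -0.06 and 0.02). The labels do not say whether the number pairs libraries, and this check cannot exclude that it does. With a replicate block, 2, 5 and 5 of the 10 genes and 0, 23 and 20 of the others were called, as without it. The cause of these shifts was not tested.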

Other observations

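Over the 9 libraries, which fall into 3 times, Ccn1, Ccn2 and Ankrd1 each had genes whose log2 CPM correlated closely with theirs, among 10357 genes compared. These correlations are descriptions, since libraries of 1 time share their treatment. For Ccn1 the 3 highest were Abcc3 (r = 0.995, with means of 8.69, 28.3 and 38.8 CPM at the 3 times), Epn2 (0.992) and Plscr2 (0.992). For Ccn2 they were Sbno2 (0.991, with 54.7, 91.2 and 105 CPM), Exo1 (0.985, with 23.8, 26.5 and 28.1 CPM) and Ankrd55 (0.982, with 0.61, 1.84 and 3.33 CPM). The correlation takes no account of the size of a change. For Ankrd1 they were Relb (0.990, with 7.93, 43.0 and 43.3 CPM), Cxcl1 (0.990, with 5.79, 481 and 439 CPM) and Cebpd (0.989). The genes most like Ankrd1 had similar means at 12 and 24 hours, whereas those most like Ccn1 had higher means at 24 hours. Genes picked for following Ankrd1 or Ccn1 over these same libraries would show this, and these differences were not tested here.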
